A study of Mus musculus with 12 samples.

Results

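Fibroblasts reprogrammed with 4 cardiac transcription factors were set against adult heart muscle cells, to ask which gene programmes stayed short of the adult level and which exceeded it. The comparison took the 3 libraries labelled GHMT and the 3 labelled CM, 6 of the 12 libraries of the series, chosen by their labels alone. GHMT cells were C57BL/6 mouse embryonic fibroblasts (MEFs) given Gata4, Hand2, Mef2c and Tbx5 and kept for 3 weeks, then sorted for green fluorescence driven by the αMHC promoter, the promoter of Myh6. CM cells were ventricular cardiomyocytes isolated from adult C57BL/6 mice, for which the labels name no sort. The empty-vector MEFs (E, 3 libraries), also kept for 3 weeks, are quoted as the level without the factors, not as cells before the treatment. The 3 AGHMT libraries (the same factors with Akt, also 3 weeks) entered the fit only, to help estimate the spread. The labels do not say whether the replicates of a group came from separate cultures or animals, so p-values measure the spread between these samples, which may be technical. The sort keeps cells in which the Myh6 promoter is active, and no source used here gives the age and sex of the mice or how many were pooled.

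An adult ventricular cardiomyocyte couples an electrical impulse to contraction: calcium enters through sarcolemmal channels, releases more calcium from the sarcoplasmic reticulum, and acts on myosin and actin filaments held in register by titin and the Z-disc. It pays for this with fatty acid oxidation in densely packed mitochondria, and it is joined to its neighbours by desmosomes, cadherins and connexins at the intercalated disc. Pacemaker cells of the sinoatrial node carry a depolarising current through HCN channels and are kept apart from working muscle by T-box and homeobox factors, while fibroblasts secrete and crosslink the collagen matrix.

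Depth was low and unequal. Gene reads numbered 1872558 to 2200815 in GHMT libraries and 5120230 to 15952646 in CM libraries, and without mitochondrially encoded genes 612458 to 1534409 in GHMT and 3074424 to 7174467 in CM. A count of 3 reads corresponded to 1.56 to 3.93 CPM (read counts scaled to a common library size with edgeR's TMM factors) in GHMT and 0.22 to 0.52 CPM in CM, so genes below about that level in GHMT were not detectable at this depth. GHMT 1 and CM 3 stood apart from their groups: the mitochondrial gene mt-Nd6 took 43.1% of the gene reads of GHMT 1, 3.34% of GHMT 2 and 14% of GHMT 3, against 2.09 to 2.32% in CM libraries, and Spearman's rho of CM 3 with the other CM libraries was 0.83 and 0.90, against 0.97 between those. Genes with over 50% GC held 10.7 to 14% of the non-mitochondrial reads in GHMT libraries and 26.1 to 53.4% in CM libraries, with the highest share in CM 3. Counts of calls are therefore also given after a correction for the GC content of the genes and without CM 3, and the part of GC content and depth in any single result was not tested. Akt1 did not set the AGHMT libraries apart. It had 7.30, 12 and 19.6 CPM in them, against 1.31, 13.55 and 13.75 CPM in GHMT and 104, 64.1 and 21 CPM in E. AGHMT 3 and E 3 were nearly equal. Whether reads of the Akt vector are in these counts is not known, so the values do not decide on the label.

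The labels were checked against the cells they name. All 16 listed cardiomyocyte markers were detected in both groups, at a summed 3719 ± 93.2 CPM in GHMT and 65420 ± 18270 CPM in CM (SD, n = 3 each). All 16 also had reads in E, at a summed 275.5 ± 46.8 CPM, so detection alone does not tell the groups apart. The list includes Myh6, whose promoter drove the sort. The CM libraries also held RNA of other heart cells: endothelial markers summed to 884 ± 140 CPM, pericyte and mural markers to 1285 ± 364 CPM and macrophage markers to 241 ± 37.4 CPM. In GHMT libraries the same sums were 162 ± 27, 66.8 ± 33.5 and 6.82 ± 4.81 CPM. Pecam1, which marks endothelium, had 0, 1 and 2 reads in the GHMT libraries, against 59.6 to 141 CPM in CM. Skeletal muscle markers summed to 2.01 ± 3.04 CPM in GHMT and 9.71 ± 4.14 CPM in CM, and epicardial and mesothelial markers to 489 ± 37.9 CPM in GHMT and 54.3 ± 3.86 CPM in CM. In bulk libraries like these, fewer cells of a type and less RNA per cell cannot be told apart.

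Of 15059 genes tested with edgeR's quasi-likelihood test, 3588 were higher in GHMT cells (23.8%) and 5233 were lower (34.7%) at a Benjamini-Hochberg adjusted p under 0.05. The 3 GHMT and the 3 CM libraries did not overlap at 8818 genes (58.6%). As 58.6% of the genes were called in either direction, the count of a list is to be read against these shares. Genes without a read in GHMT passed the filter on low counts through other groups. The genes named below come from fixed lists, the most abundant and most changed members by a rule, and others were chosen after their values were seen. The median log2 fold change over all tested genes was -0.82, and it was -1.36 with DESeq2 size factors and -1.05 with total counts. Higher genes made up 40.7% of the calls, and 30.5% with DESeq2 size factors. The direction followed base composition and level: higher genes were 84.0% of the calls under 40% GC and 14% over 50% GC, and 80.6% of the calls above a mean log2 CPM of 5 and 18.9% up to 2. After the GC correction 21.9% of genes were higher and 30.1% lower, and without CM 3 20.5% were higher and 28.8% lower.

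**Figure D1:**
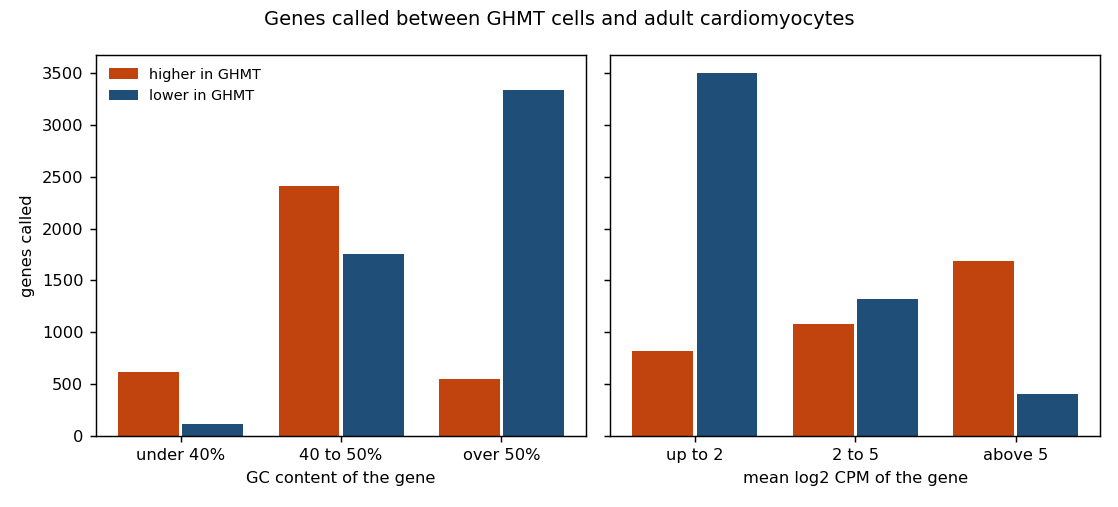
Number of genes called higher (red) or lower (blue) in GHMT cells than in adult cardiomyocytes, by GC content of the gene (left) and by mean log2 CPM (right). Calls over 50% GC were 544 higher and 3337 lower, and calls above a mean log2 CPM of 5 were 1692 higher and 407 lower.

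The contractile filaments stayed far below the adult level. Of 15 genes of myosin and the thick filament, 14 were tested and 14 were lower in GHMT, with a median log2 fold change of -6.59. Their summed level was 304 ± 99.8 CPM in GHMT and 23310 ± 15430 CPM in CM, or 1.31% of the adult sum, with 11.4 to 16 CPM in E. Myh6, the adult myosin heavy chain and the source of the sort promoter, had 28.8, 42.7 and 71.5 CPM in GHMT libraries, against 2593, 2268 and 17410 CPM in CM libraries. The groups did not overlap, and CM 3 stood well above the other CM libraries. The log2 fold change of Myh6 was -7.26 ± 0.86 (SE, adjusted p = 9.3e-06), with 0.986 CPM in E. Myl2, the ventricular regulatory light chain, had 11.8, 31.3 and 80.4 CPM in GHMT, against 9874, 5125 and 13306 CPM in CM, a log2 fold change of -7.80 ± 0.73 (adjusted p = 1.1e-06). Mybpc3, the cardiac myosin-binding protein, differed by -8.05 ± 0.74 (adjusted p = 8.8e-07), on 18 reads in the 3 GHMT libraries together.

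The thin filament was also short, with a wider range. Of 16 listed genes 15 were tested and 14 were lower, with a median of -6.44. The sum was 1451 ± 326 CPM in GHMT and 24810 ± 7047 CPM in CM (5.85%), and E libraries held 1310 to 1812 CPM, of which Tpm1 made up 1334 ± 213 CPM. Actc1, cardiac actin, had 80.0, 102 and 126 CPM in GHMT, against 10463, 8447 and 7959 CPM in CM. Tnnt2, cardiac troponin T, had 231, 206 and 269 CPM in GHMT, against 2440, 1170 and 6920 CPM in CM. Every GHMT value of both genes lay below every CM value. The log2 fold change was -6.44 ± 0.51 for Actc1 (adjusted p = 2.7e-07) and -3.90 ± 0.59 for Tnnt2 (adjusted p = 8.4e-05). Tnni3, which encodes the adult inhibitory troponin, differed by -8.09 ± 1.03 (adjusted p = 1.8e-05, not called by DESeq2), and Tpm1, tropomyosin, by -2.95 ± 0.31 (adjusted p = 3.4e-06). After the GC correction 13 thick and 14 thin filament genes were lower, and without CM 3 the same numbers were.

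The Z-disc was uneven. Of 20 genes of titin, the Z-disc and desmin, 18 were tested, 13 were lower and 2 were higher, with a median of -4.82, yet the sum reached 5951 ± 307 CPM in GHMT and 14300 ± 656 CPM in CM (41.6%). Ttn, the giant spring protein, had 193, 194 and 258 CPM in GHMT, against 6791, 6270 and 4055 CPM in CM, a log2 fold change of -4.73 ± 0.30 (adjusted p = 4.9e-08). Myoz2, a calcineurin-binding Z-disc protein, had 3.93, 4.17 and 6.87 CPM in GHMT, against 1950, 1011 and 1184 CPM in CM. Ankrd1, a titin-binding ankyrin protein induced by stretch, had 2695, 3048 and 3782 CPM in GHMT, against 1321, 1157 and 931 CPM in CM. The list sums of the same GHMT libraries were 5736, 5815 and 6303 CPM, so Ankrd1 alone made up a large part of them. The GHMT libraries were above the CM libraries at Ankrd1 and below them at Ttn and Myoz2, with no overlap at any of these. The log2 fold change was 1.48 ± 0.25 for Ankrd1 (adjusted p = 2e-04) and -8.06 ± 0.53 for Myoz2 (adjusted p = 6.3e-08). Ldb3, a PDZ and LIM scaffold, had 1277, 982 and 794 CPM in GHMT, against 441, 546 and 673 CPM in CM. Its log2 fold change of 0.88 ± 0.27 (adjusted p = 0.013) did not pass with DESeq2 size factors or total counts. Nexn, an actin-binding Z-disc protein, averaged 838 ± 139 CPM in GHMT and 1014 ± 445 CPM in CM (adjusted p = 0.55, but -1.81 with adjusted p = 4.3e-05 after the GC correction).

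Start-proximal sequence from RefSeq on GRCm38.p6 is shown for genes that ended on different sides of the adult level since the forced factors include members of the MEF2, GATA and T-box families. Each window runs from 250 bases before to 50 bases after the annotated start, in the direction of transcription. Capitals mark a match on either strand to the MEF2 letters CTANNNNTAG, to AGATAA, which GATA factors bind, or to the T-box letters AGGTGT and no match shown overlaps another. The Ankrd1 window (chr19:36119795-36120094, minus strand) holds a GATA match, written as its reverse complement. The Ldb3 (chr14:34588632-34588931), Ttn (chr2:76982498-76982797) and Myoz2 (chr3:123034938-123035237) windows on the minus strand each hold a MEF2 match. The Hcn4 window (chr9:58822699-58822998, plus strand), of the pacemaker channel described below, holds a T-box match written as its reverse complement. The 5 genes were chosen for a window with a match, and the window of Myh6 (chr14:54966558-54966857, minus strand), whose promoter drove the sort, is shown beside them and holds none.
Ankrd1: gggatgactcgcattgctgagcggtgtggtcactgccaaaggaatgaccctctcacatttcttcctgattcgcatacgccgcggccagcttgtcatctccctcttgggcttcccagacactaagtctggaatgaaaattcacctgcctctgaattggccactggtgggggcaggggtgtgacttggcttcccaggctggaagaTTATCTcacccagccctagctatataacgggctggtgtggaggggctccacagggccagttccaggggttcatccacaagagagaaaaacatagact
Ldb3: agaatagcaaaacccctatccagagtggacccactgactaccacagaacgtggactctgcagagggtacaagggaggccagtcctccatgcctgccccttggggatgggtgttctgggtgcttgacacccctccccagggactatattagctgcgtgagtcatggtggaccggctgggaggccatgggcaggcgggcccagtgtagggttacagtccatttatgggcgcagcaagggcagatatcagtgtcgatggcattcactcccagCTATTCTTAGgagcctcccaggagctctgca
Ttn: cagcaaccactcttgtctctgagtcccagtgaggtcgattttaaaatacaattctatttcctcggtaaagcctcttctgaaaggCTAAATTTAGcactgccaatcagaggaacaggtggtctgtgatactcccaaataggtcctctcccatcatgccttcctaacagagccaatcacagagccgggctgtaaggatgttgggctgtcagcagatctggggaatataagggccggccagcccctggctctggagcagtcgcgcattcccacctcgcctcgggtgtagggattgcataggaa
Myoz2: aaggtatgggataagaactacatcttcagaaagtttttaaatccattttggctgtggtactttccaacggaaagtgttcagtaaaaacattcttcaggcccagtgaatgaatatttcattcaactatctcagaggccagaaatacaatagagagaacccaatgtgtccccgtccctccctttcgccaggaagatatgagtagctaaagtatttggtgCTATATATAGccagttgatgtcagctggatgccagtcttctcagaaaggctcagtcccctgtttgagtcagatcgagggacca
Hcn4: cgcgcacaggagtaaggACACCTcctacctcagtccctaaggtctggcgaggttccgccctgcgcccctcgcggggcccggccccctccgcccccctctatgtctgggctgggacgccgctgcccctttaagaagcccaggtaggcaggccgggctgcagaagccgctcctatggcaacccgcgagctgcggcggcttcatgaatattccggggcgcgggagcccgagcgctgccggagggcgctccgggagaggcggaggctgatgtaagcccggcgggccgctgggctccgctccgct
Myh6: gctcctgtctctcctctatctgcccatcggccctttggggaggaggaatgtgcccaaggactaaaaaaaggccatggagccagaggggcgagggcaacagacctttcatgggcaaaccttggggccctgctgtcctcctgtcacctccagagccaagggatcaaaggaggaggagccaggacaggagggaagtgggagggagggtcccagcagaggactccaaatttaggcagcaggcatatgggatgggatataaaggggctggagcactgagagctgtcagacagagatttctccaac
The MEF2 letters occurred in 6 of the 14 genes of the titin, Z-disc and desmin list that have a RefSeq window (42.9%), against 4.23% of 27025 genes with one. Of those 6 genes Ldb3 was higher in GHMT and Ttn, Myoz2, Des, Flnc and Synpo2l were lower. At the free letters (N) the Ldb3 match holds a C, while the Ttn and Myoz2 matches hold only A and T. A like MEF2 site on both sides of the adult level is therefore not shown. The GATA letters occurred in 6 of 13 thick filament genes (46.2%), against 12.7% of genes, and the T-box letters in 1 of 9 pacemaker genes (11.1%), against 15.7%. All letters were counted in every gene list, and only a few shares are quoted. High shares arose elsewhere too, with the T-box letters in 5 of 9 lymphocyte markers (55.6%). The MEF2 letters were in 0 of 12 sarcoplasmic reticulum calcium genes. A link between these shares and the forced factors was not tested. A match is a description of these letters and shows no binding.

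Cell junction genes were split, with Dsp, Dsc2 and Cdh2 among those above the adult level and Des and Gjc1 below it. Of 15 genes of the intercalated disc and connexins 14 were tested, 7 were higher, 2 were lower and 5 did not pass, with a median of 0.69. After the GC correction 7 were higher and 3 lower. With DESeq2 size factors 3 were higher and 3 lower and the median was 0.15. Dsp, which anchors desmosomes to intermediate filaments, had 1947, 1954 and 1117 CPM in GHMT, against 557, 546 and 575 CPM in CM and 1.02 CPM in E. Dsc2, a desmosomal cadherin, had 492, 466 and 257 CPM in GHMT, against 72.2, 86.0 and 34.4 CPM in CM. Cdh2, N-cadherin, averaged 720 ± 177 CPM in GHMT and 181 ± 3.33 CPM in CM, with 133 CPM in E. The GHMT libraries were above the CM libraries at each of the 3 genes, with log2 fold changes of 1.58 ± 0.27 for Dsp (adjusted p = 0.00021), 2.65 ± 0.39 for Dsc2 (adjusted p = 6e-05) and 1.99 ± 0.28 for Cdh2 (adjusted p = 3.8e-05). Des, the muscle intermediate filament, was at 1.37 to 2.62 CPM in GHMT and at 63.3 to 772 CPM in CM, a log2 fold change of -7.36 ± 1.26 (adjusted p = 0.00021, not called by DESeq2). Gja1, the main ventricular connexin, was at 921 ± 107 CPM in GHMT and 603 ± 165 CPM in CM (adjusted p = 0.089), and its log2 fold change of 0.61 turned to -0.53 after the GC correction (adjusted p = 0.021). Dsg2 and Pkp2, a desmosomal cadherin and plakophilin, did not pass, with log2 fold changes of -0.10 (adjusted p = 0.83) and 0.20 (adjusted p = 0.57).

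**Figure D2:**
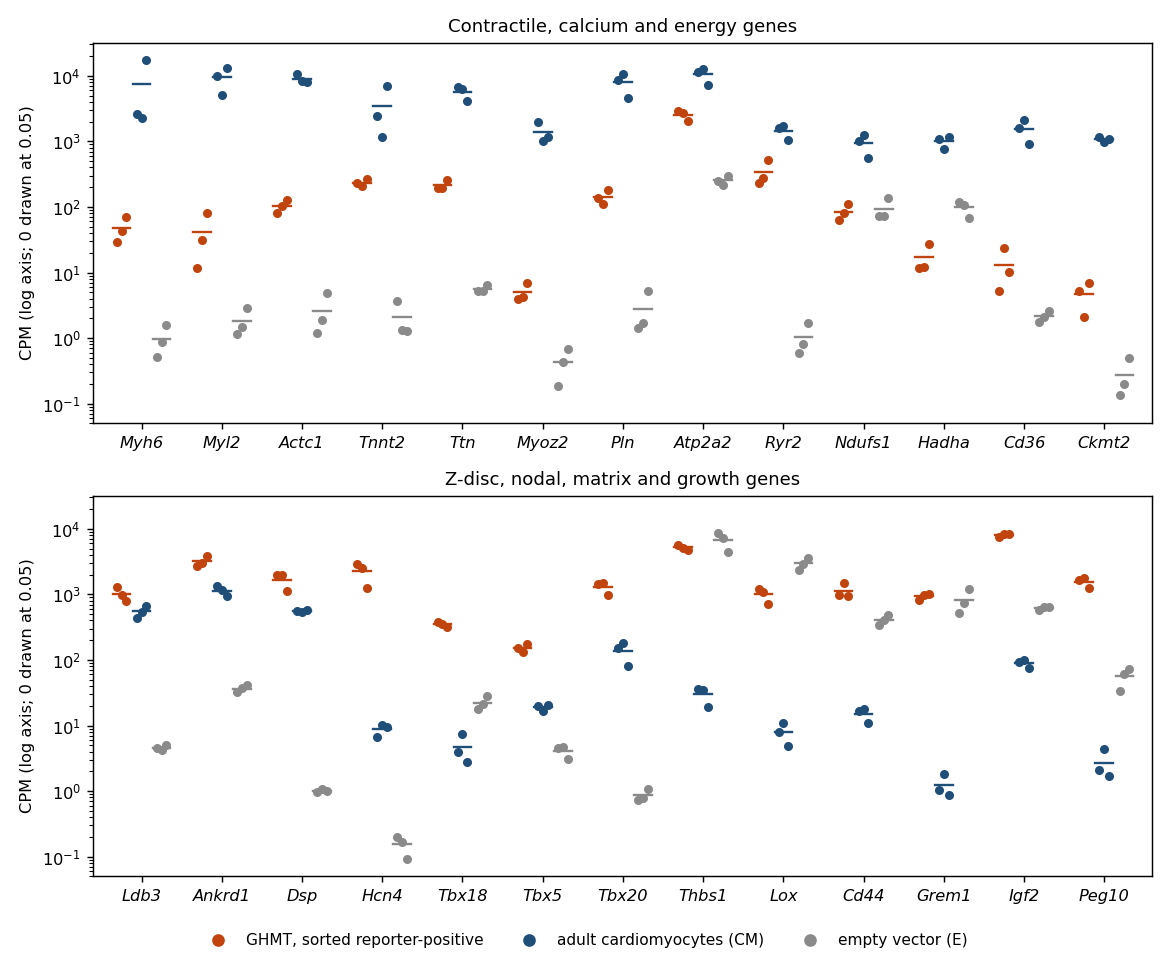
CPM of 26 genes in each library on a log axis, GHMT in red, adult cardiomyocytes in blue and empty-vector MEFs in grey, with a line at the mean of each group. Contractile, calcium and energy genes of GHMT cells lay below the adult libraries (upper panel), and Ankrd1, Dsp, Hcn4 and the matrix and growth genes lay above them (lower panel).

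Calcium handling was also short of the adult level, with its pump and release channel well above the E libraries. Of 19 sarcoplasmic reticulum genes 16 were tested, 14 were lower and 1, Camk2d, was higher, with a median of -3.62. The sum was 4238 ± 625 CPM in GHMT and 25010 ± 6606 CPM in CM (16.9%). Atp2a2, the SERCA2 calcium pump, had 2860, 2747 and 2043 CPM in GHMT, against 11612, 12781 and 7171 CPM in CM, a log2 fold change of -2.04 ± 0.28 (adjusted p = 3.7e-05). Ryr2, the calcium release channel, had 233, 271 and 524 CPM in GHMT, against 1586, 1695 and 1041 CPM in CM, a log2 fold change of -2.07 ± 0.39 (adjusted p = 0.00054). Pln, phospholamban, the inhibitor of that pump, had 138, 112 and 179 CPM in GHMT, against 8651, 10605 and 4606 CPM in CM, a log2 fold change of -5.80 ± 0.53 (adjusted p = 8.7e-07). No GHMT library reached a CM library at any of the 3 genes. Hrc, a luminal calcium-binding protein, differed by -7.97 ± 0.63 (adjusted p = 2.7e-07) on 14 reads in GHMT. Camk2d, the main cardiac calmodulin kinase, was higher by 1.28 ± 0.48 (adjusted p = 0.033), a call lost after the GC correction (adjusted p = 0.3), with 1130 CPM in GHMT 1 and 247 to 364 CPM in the other GHMT libraries.

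At the sarcolemma 23 of 24 ion transport genes were tested, 16 were lower and 0 were higher (2 after the GC correction), with a median of -2.70. Cacna1c, the L-type calcium channel, had 6.55, 21.4 and 50.2 CPM in GHMT, against 191, 169 and 165 CPM in CM (log2 fold change -2.70 ± 0.47, adjusted p = 0.00025, lost when all libraries were thinned to equal depth). Kcnj2, which carries the inward rectifier current that holds the resting potential, and Slc8a1, the sodium-calcium exchanger, differed by -2.19 ± 0.43 (adjusted p = 0.00067) and -1.86 ± 0.33 (adjusted p = 0.00032), both lost on thinning. Several channel genes did not pass. Kcnj5, a subunit of the acetylcholine-gated potassium channel, had 80.0, 114 and 400 CPM in GHMT, against 208, 246 and 109 CPM in CM (0.08 ± 0.51, adjusted p = 0.9), with 0.135 CPM in E. Its partner Kcnj3 averaged 108 ± 54 CPM in GHMT and 134 ± 61.1 CPM in CM (adjusted p = 0.48), and Cacna2d1, a calcium channel subunit, 258 ± 120 and 263 ± 113 CPM (adjusted p = 0.95, but -1.38 with adjusted p = 0.0012 after the GC correction). Chrm2, the muscarinic receptor that slows the heart, averaged 232 ± 48.6 CPM in GHMT and 188 ± 80.9 CPM in CM (adjusted p = 0.46).

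Genes of the pacemaker and conduction system split. Of 15, all tested, 5 were higher and 7 were lower, and the median of 0.44 turned to -0.18 with DESeq2 size factors. Hcn4, the main pacemaker channel, had 2918, 2527 and 1271 CPM in GHMT, against 6.61, 10.3 and 9.45 CPM in CM and 0.154 CPM in E. Every GHMT library was far above every CM library, and the log2 fold change was 7.98 ± 0.50 (adjusted p = 4.5e-08, and 9.47 after the GC correction). Tbx18, a T-box factor of the sinus node head and the epicardium, had 376, 350 and 323 CPM in GHMT, against 4.01, 7.35 and 2.75 CPM in CM (6.16 ± 0.41, adjusted p = 6.6e-08). Shox2, a homeobox factor of the sinus node, had 44.6, 113 and 88.7 CPM in GHMT, against 1.19, 1.61 and 0.515 CPM in CM (6.03 ± 0.49, adjusted p = 2.7e-07). Shox2 averaged 99.5 ± 27.8 CPM in E, a range that overlaps GHMT, and Tbx18 22.3 ± 4.90 CPM. Vsnl1 was higher by 4.44 ± 1.23 (adjusted p = 0.0012, on 16 GHMT reads). Other nodal genes were not above the adult level: Isl1 had 1 read in GHMT libraries together, Tbx3 did not pass (0.44 ± 0.37, adjusted p = 0.32), and the pair Gjc1, a nodal connexin, and Popdc2, a membrane cyclic AMP binder, were lower by -2.91 ± 0.61 (adjusted p = 0.0011) and -5.09 ± 0.48 (adjusted p = 1.3e-06).

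Ventricular genes were mostly short. Of 10 ventricular genes 9 were lower and 0 higher, with a median of -6.92. Irx4, the ventricular homeobox factor, had no read in GHMT and 9.44, 10.3 and 27.3 CPM in CM, which is at least 18.3-fold lower, taking 3 reads over the GHMT group as the floor. Of 14 atrial genes 13 were tested, 3 were higher (23.1%, near the 23.8% of all genes) and 6 lower (46.2%, against 34.7%). Nppa, the atrial natriuretic peptide, had 7.87, 35.4 and 26.1 CPM in GHMT, against 137, 137 and 202 CPM in CM (-2.72 ± 0.47, adjusted p = 0.00024), and Nppb, the B-type peptide, was lower by -5.10 ± 0.89 (adjusted p = 0.00024). Pam, the enzyme that amidates peptide hormones and is abundant in atrial granule membranes, had 1369, 2317 and 5185 CPM in GHMT, against 590, 539 and 377 CPM in CM (2.56 ± 0.40, adjusted p = 1e-04).

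Among the forced factors, Tbx5 and Mef2c were above the adult level and Gata4 and Hand2 were not. Tbx5 had 151, 133 and 177 CPM in GHMT, against 19.7, 16.9 and 20.8 CPM in CM (3.0 ± 0.33, adjusted p = 4.8e-06). Mef2c had 246, 191 and 216 CPM in GHMT, against 110, 147 and 59.8 CPM in CM (1.04 ± 0.32, adjusted p = 0.012, and -0.30 after the GC correction). Gata4 had 2.62, 15.6 and 5.50 CPM in GHMT, against 40.4, 20.3 and 68.0 CPM in CM (-2.32 ± 0.77, adjusted p = 0.017), a call lost without CM 3 and after the GC correction, with 0.174 CPM in E. Hand2 averaged 5.17 ± 4.05 CPM in GHMT and 17.8 ± 15.6 CPM in CM (adjusted p = 0.074). The counts do not separate reads of the vectors from reads of the cells' own genes. Of the 20 genes of the cardiac transcription factor list 18 were tested, 8 were higher and 5 were lower, and the median of 0.28 turned to -0.30 with DESeq2 size factors. Tbx20 had 1446, 1480 and 979 CPM in GHMT, against 152, 182 and 79.7 CPM in CM and 0.861 CPM in E (3.24 ± 0.34, adjusted p = 3.6e-06). Mef2a was higher by 2.54 ± 0.34 (adjusted p = 3.1e-05) and Myocd, the coactivator of serum response factor, by 2.45 ± 0.41 (adjusted p = 0.00021). Smyd1, a muscle histone methyltransferase needed for sarcomere assembly, had 5.24, 10.9 and 4.81 CPM in GHMT, against 788, 748 and 446 CPM in CM (-6.47 ± 0.44, adjusted p = 7.2e-08). Nkx2-5 had no read in GHMT and 0.446, 1.61 and 19.1 CPM in CM, and was not tested.

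**Figure D3:**
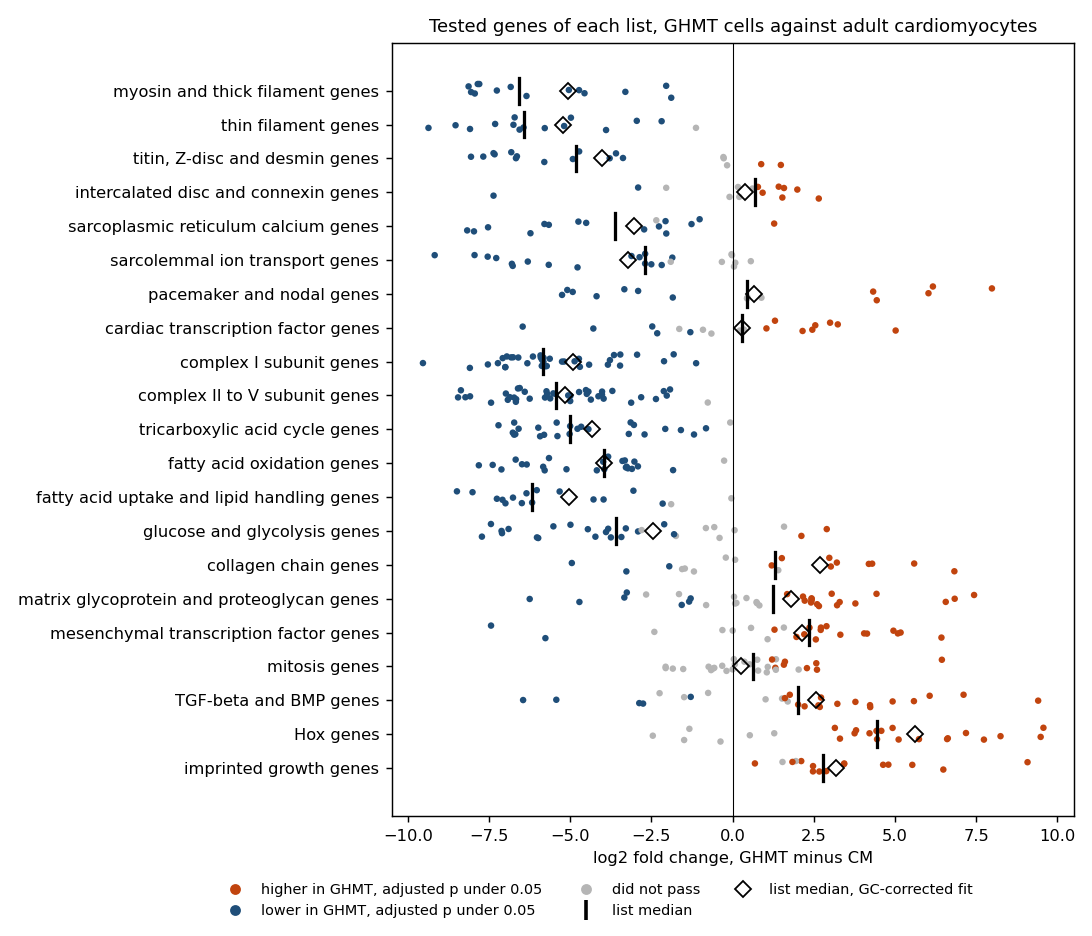
Log2 fold change (GHMT minus CM) of each tested gene of 21 lists, red where higher and blue where lower in GHMT cells at an adjusted p under 0.05, with the list median as a bar and its GC-corrected value as a diamond. Medians of the filament and respiratory chain lists lay between -6.59 and -5.45, and those of the Hox and imprinted growth lists at 4.44 and 2.78.

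Energy metabolism genes were short of the adult level almost throughout. Of 37 genes of respiratory complex I 37 were tested and 37 were lower (median -5.83), and of 42 genes of complexes II to V 41 were tested and 40 were lower (median -5.45). After the GC correction 35 and 39 were lower, and without CM 3 35 and 38 were. The sum for complexes II to V was 1038 ± 338 CPM in GHMT and 21740 ± 2916 CPM in CM (4.77%), with 1550 to 2208 CPM in E libraries. Ndufs1, the largest complex I subunit, had 64.2, 80.8 and 109 CPM in GHMT, against 1023, 1250 and 556 CPM in CM (-3.47 ± 0.38, adjusted p = 4.9e-06). Atp5b, the catalytic subunit of ATP synthase, had 40.6, 93.8 and 124 CPM in GHMT, against 3022, 2158 and 3199 CPM in CM (-5.0 ± 0.41, adjusted p = 4e-07). The GHMT libraries lay below the CM libraries at both genes, and the E means were 93.4 ± 37 CPM for Ndufs1 and 397 ± 105 CPM for Atp5b. Mitochondrial ribosomal protein genes were lower at 48 of 53 tested (56 listed), with a median of -3.70. When all libraries were thinned to equal depth, 13 of 46 tested were lower (median -3.1), against 30 of 34 for complex I. The shortfall was not confined to energy genes. Cytosolic ribosomal protein genes were lower at 25 of 48 tested and higher at 1 (median -2.17), with 14 lower after the GC correction. Their sum was 334 ± 14.2 CPM in GHMT, 1366 ± 429 CPM in CM and 2611 ± 951 CPM in E. The mitochondrially encoded genes gave no common direction: of 10 tested (13 listed) 3 were higher and 2 lower, and 1 higher and 7 lower after the GC correction.

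Genes of fuel use were lower as well. Tricarboxylic acid cycle genes were lower at 24 of 25 tested (median -5.01) and fatty acid oxidation genes at 23 of 24 tested (25 listed, median -3.97), with 0 higher in either. The oxidation sum was 606 ± 121 CPM in GHMT and 7022 ± 78.4 CPM in CM (8.63%). Hadha, the trifunctional protein of beta oxidation, had 11.8, 12 and 27.5 CPM in GHMT, against 1081, 757 and 1149 CPM in CM (-5.83 ± 0.45, adjusted p = 2.2e-07). Cd36, the fatty acid translocase, which endothelium also expresses and for which the part of the endothelial RNA in CM was not tested, had 5.24, 24 and 10.3 CPM in GHMT, against 1619, 2110 and 909 CPM in CM (-6.76 ± 0.51, adjusted p = 2.1e-07). Lpl, lipoprotein lipase, was lower as well, with 1657, 1513 and 1071 CPM in GHMT, against 6523, 8494 and 3880 CPM in CM and 74.1 CPM in E (-2.16 ± 0.32, adjusted p = 6.3e-05). Ckmt2, the mitochondrial creatine kinase that buffers ATP, had 5.24, 2.08 and 6.87 CPM in GHMT, against 1174, 993 and 1088 CPM in CM (-7.87 ± 0.54, adjusted p = 7.2e-08). Mb, myoglobin, averaged 18.5 ± 11.8 CPM in GHMT and 4574 ± 4593 CPM in CM, where CM 3 held 9878 CPM (-7.88 ± 0.83, adjusted p = 3.3e-06, not called by DESeq2).

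Most regulators of this metabolism were also below the adult level. Of 16 metabolic regulator genes 12 were lower and 2 higher, with a median of -4.08. Ppargc1a, the coactivator that drives mitochondrial biogenesis, had 17, 26.6 and 33 CPM in GHMT, against 174, 204 and 99.5 CPM in CM and 0.204 CPM in E (-2.61 ± 0.38, adjusted p = 5.7e-05). Perm1, a muscle regulator downstream of it, had 4 reads in the GHMT libraries together, against 205 to 220 CPM in CM (-7.60 ± 0.49, adjusted p = 4.3e-08). The nuclear receptors Ppara and Esrrb had no read in GHMT, against 8.76 to 18.6 and 9.26 to 14.1 CPM in CM, at least 20.8-fold and 15-fold lower. Glucose and glycolysis genes were lower at 19 of 28 and higher at 2, Slc2a1 and Pdk3. Slc2a1, the basal glucose transporter, had 56.4, 32.8 and 14.4 CPM in GHMT, against 3.42, 3.12 and 7.04 CPM in CM (2.90 ± 0.67, adjusted p = 0.0021, lost on thinning). Slc2a4, the insulin-responsive transporter, had 0, 0.521 and 1.37 CPM in GHMT, on 3 reads in all, against 128, 87.4 and 314 CPM in CM. Gapdh and some other glycolytic genes have near-identical copies in the genome, and reads that match several places are not in these counts, so the list is uncertain at those members.

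**Figure D4:**
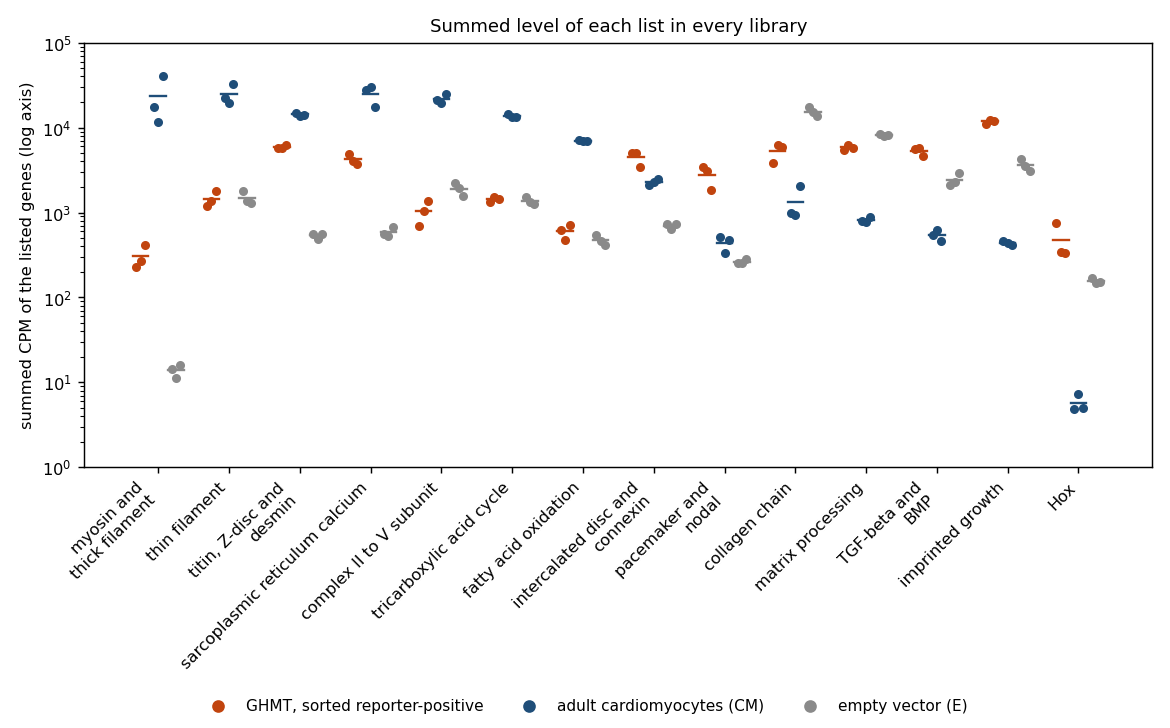
Summed CPM of the genes of 14 lists in each library on a log axis, GHMT in red, adult cardiomyocytes in blue and empty-vector MEFs in grey. GHMT sums lay below the adult libraries for the filament, calcium and energy lists, and above them for the junction, nodal, collagen, matrix, growth and Hox lists. In each GHMT library Hcn4 made up most of the nodal sum and Igf2 most of the imprinted growth sum.

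Shares of reads within pairs of related genes do not depend on scaling between libraries. They can still depend on GC content where the genes of a pair differ in it, and that part was not tested. The pairs were chosen with earlier results of these data known. Of 28 pairs, 16 had at least 20 reads in each GHMT library, a minimum chosen after seeing the data, and 12 of these did not overlap between the groups. Among all single genes tested, 58.6% did not overlap by CPM. The share of the gene named first was higher in GHMT at 11 of the 12. At 3 of those 11 that gene also held most of the reads in CM, at 92.7% for Cav1 with Cav3, 72.1% for Hcn4 with Hcn2 and 61.2% for Kcnj3 with Kcnj2. With 3 libraries against 3 the exact two-sided permutation test cannot go below p = 0.1, which all 12 reached, or 0.14 after Benjamini-Hochberg adjustment. Acta2, the smooth muscle actin, held 76.1, 78.4 and 72.2% of its reads with Actc1 in GHMT, against 0.858, 0.613 and 2.83% in CM. Actn1, the non-muscle actinin, held 98.7 ± 1.47% of the reads it shares with Actn2 in GHMT and 2.04 ± 0.63% in CM. Slc2a1 held 96.6 ± 4.64% with Slc2a4 in GHMT and 2.75 ± 0.64% in CM. Ldha, the lactate dehydrogenase subunit of glycolytic tissue, held 94.8 ± 3.53% with Ldhb in GHMT and 38.1 ± 4.54% in CM. Myl7, the atrial light chain, held 55, 28.6 and 14.6% with Myl2 in GHMT, against 0.251, 0.212 and 0.992% in CM, on 20 to 137 reads in each GHMT library. The exception in direction was Gjc1 with Gja1, at 0.476 ± 0.46% in GHMT and 5.40 ± 0.52% in CM. Myh7, the slow myosin that dominates the fetal ventricle, overlapped: it held 0, 3.53 and 0.952% with Myh6 in GHMT, against 8.76, 9.54 and 1.37% in CM. Tpm2 with Tpm1, Sln with Pln and Hk1 with Hk2 overlapped too.

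**Figure D5:**
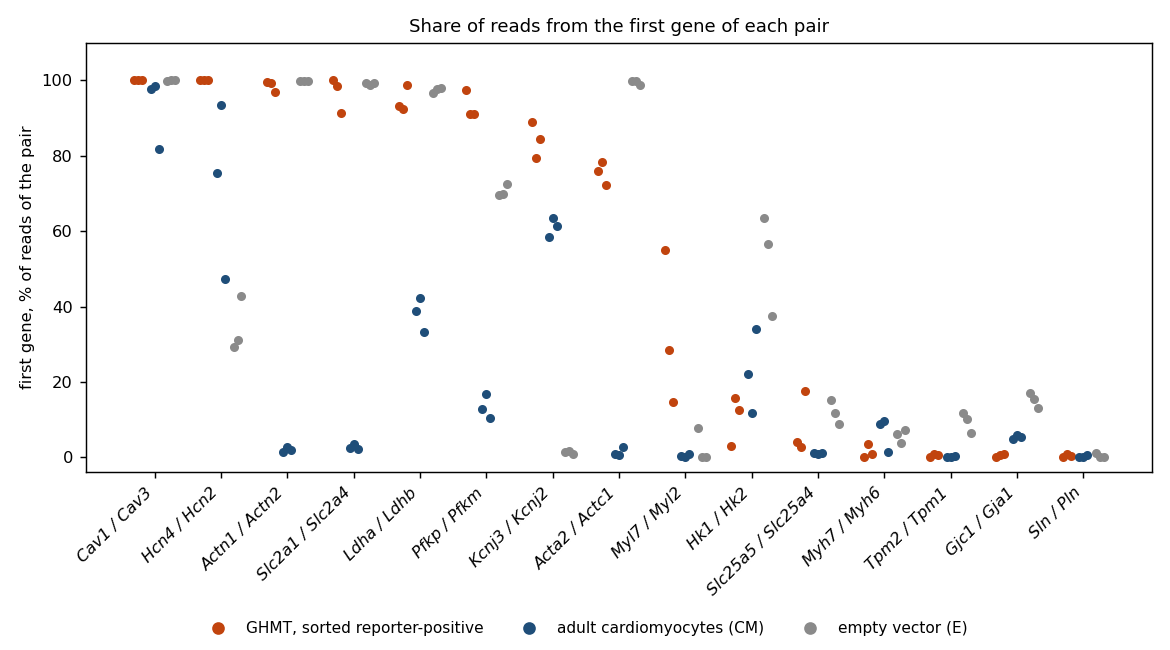
Percent of the reads of each gene pair that come from the first gene, in each library, for 15 of the pairs with at least 20 reads in each GHMT library. GHMT libraries (red) stood near the empty-vector MEFs (grey) and apart from adult cardiomyocytes (blue) at Actn1, Slc2a1 and Ldha. At Acta2 the GHMT libraries lay between those groups.

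Many extracellular matrix genes exceeded the adult level, and fewer lay below it. Of 18 collagen chain genes 9 were higher and 3 lower (median 1.3), with 11 higher and 2 lower after the GC correction and 8 higher and 6 lower with DESeq2 size factors (median 0.69). Of 30 matrix processing genes 12 were higher and 6 lower, and the median of 0.09 turned to -0.59 with DESeq2 size factors. Of 35 matrix glycoprotein and proteoglycan genes 34 were tested, 17 were higher and 7 lower (median 1.25), with a sum of 13790 ± 751 CPM in GHMT and 2333 ± 338 CPM in CM. Col1a1, the alpha 1 chain of type I collagen, had 602, 1486 and 1256 CPM in GHMT, against 50.2, 45.2 and 75.1 CPM in CM and 2174 CPM in E (4.29 ± 0.40, adjusted p = 1e-06). Col12a1, a fibril-associated collagen, had 543, 513 and 652 CPM in GHMT, against 5.05, 4.83 and 4.81 CPM in CM and 3454 CPM in E (6.83 ± 0.30, adjusted p = 6.8e-09). Both collagens lay between the adult and the MEF libraries. Thbs1, thrombospondin 1, had 5680, 5149 and 4727 CPM in GHMT, against 36, 34.3 and 19.1 CPM in CM (7.43 ± 0.40, adjusted p = 1.9e-08), and its mean of 5185 ± 478 CPM was within the spread of E, 6719 ± 2091 CPM. Lox, the enzyme that crosslinks collagen, had 1201, 1085 and 701 CPM in GHMT, against 8.03, 11.1 and 4.81 CPM in CM (6.93 ± 0.40, adjusted p = 2.8e-08). Efemp1, an elastic fibre protein, was higher in GHMT (2064 ± 199 CPM) than in CM (17.9 ± 6.42 CPM), by 6.83 ± 0.40 (adjusted p = 3.2e-08), and stood at 186 ± 68.5 CPM in E. Dcn, decorin, and Postn, periostin, were called higher by 2.22 ± 0.30 (adjusted p = 3.5e-05) and 1.68 ± 0.40 (adjusted p = 0.0028), and neither passed after the GC correction (0.13 and -0.37). Timp4, a protease inhibitor of heart muscle, had no read in GHMT and 17.7 to 19.6 CPM in CM, at least 26.2-fold lower.

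The fibroblast and mesenchymal lists were mixed in their surface genes and higher in their regulators. Of 22 fibroblast surface and cytoskeletal genes 8 were higher and 7 lower (median -0.76, and 0.64 after the GC correction). Cd44, the hyaluronan receptor, had 979, 1491 and 953 CPM in GHMT, against 16.8, 17.7 and 10.8 CPM in CM (6.22 ± 0.36, adjusted p = 2.3e-08), while Cd34, which endothelium also expresses, was lower by -4.27 ± 0.47 (adjusted p = 4.4e-06). Of 24 mesenchymal transcription factor genes 23 were tested, 15 were higher and 2 lower, with a median of 2.36. Runx1 had 178, 228 and 144 CPM in GHMT, against 1.71, 2.31 and 2.06 CPM in CM (6.43 ± 0.37, adjusted p = 2.3e-08), and Meox2 had no read in GHMT and 18.7 to 22.4 CPM in CM, at least 28-fold lower. Smooth muscle genes were higher at 6 and lower at 4 of 15, and at 4 each with DESeq2 size factors. Cald1, caldesmon, had 5447, 5202 and 4123 CPM in GHMT, against 80.1, 95.6 and 57.2 CPM in CM (5.98 ± 0.34, adjusted p = 2.3e-08).

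Genes of the TGF-beta and BMP family were above the adult level at most called genes. Of 28 genes 27 were tested, 16 were higher and 5 lower (median 2.02), with 19 and 4 after the GC correction. The ligand Tgfb2 had 349, 299 and 188 CPM in GHMT, against 15.3, 19.5 and 9.10 CPM in CM (4.23 ± 0.37, adjusted p = 6.7e-07). The receptor Tgfbr1 had 482, 565 and 612 CPM in GHMT, against 33.4, 37.2 and 17 CPM in CM (4.23 ± 0.37, adjusted p = 5.9e-07). Bmp2, a BMP ligand, averaged 58.3 ± 25 CPM in GHMT and 1.13 ± 0.29 CPM in CM (5.58 ± 0.57, adjusted p = 1.8e-06), with 0.187 CPM in E. Its secreted antagonist Grem1 had 807, 970 and 1018 CPM in GHMT, against 1.04, 1.81 and 0.859 CPM in CM (9.40 ± 0.47, adjusted p = 1.7e-08). Grem1 stood at 819 ± 351 CPM in E, where the libraries ran from 517 to 1204 CPM and overlapped those of GHMT.

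Most mitosis and replication genes did not pass, and inhibitors were among the cell cycle genes above the adult level. Of 30 mitosis genes 8 were higher (26.7%, near the 23.8% of all genes) and 0 lower (median 0.64), but 4 were higher after the GC correction and 3 were lower with DESeq2 size factors. Mki67, the proliferation antigen, averaged 12.8 ± 5.30 CPM in GHMT and 15.7 ± 3.63 CPM in CM (adjusted p = 0.48), with 318 ± 96.2 CPM in E. Of 30 replication genes 29 were tested, 1 was higher and 9 were lower (31%, near the 34.7% of all genes). Cdkn1a, the p21 inhibitor, had 286, 240 and 192 CPM in GHMT, against 15, 7.95 and 10.3 CPM in CM (4.41 ± 0.38, adjusted p = 5.4e-07), near the 186 ± 66.8 CPM of E. The cyclin Ccnd2 had 328, 502 and 529 CPM in GHMT, against 99.9, 70.6 and 67.7 CPM in CM (2.51 ± 0.29, adjusted p = 6e-06). Of 21 genes of cell cycle entry and its inhibitors 12 were higher and 3 lower (median 1.99).

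Embryonic growth and position genes exceeded the adult level. Of 16 imprinted growth genes 14 were higher and 0 lower (median 2.78), and after the GC correction 16 were higher. Igf2, the fetal insulin-like growth factor, had 7465, 8268 and 8237 CPM in GHMT, against 93.0, 99.4 and 74.7 CPM in CM (6.49 ± 0.31, adjusted p = 1.1e-08). It stood at 623 ± 46.7 CPM in E, below every GHMT library. Peg10, a paternally expressed retrotransposon-derived gene, had 1629, 1765 and 1245 CPM in GHMT, against 2.08, 4.33 and 1.72 CPM in CM and 56 ± 20.5 CPM in E (9.08 ± 0.50, adjusted p = 2.3e-08). Mest averaged 396 ± 63.9 CPM in GHMT and 8.35 ± 3.20 CPM in CM, and Plagl1, a zinc finger regulator of imprinted genes, 302 ± 68.8 and 10.7 ± 2.66 CPM. Of 26 Hox genes 24 were tested, 18 were higher and 0 lower (median 4.44). Hoxc10 had 152, 22.9 and 94.2 CPM in GHMT and no read in CM, at least 699-fold higher against 3 reads over the CM group, with 10.7 CPM in E. The Hox sum was 473 ± 234 CPM in GHMT, 5.72 ± 1.41 CPM in CM and 157 CPM in E. Sterol and fatty acid synthesis genes were higher at 14 and lower at 4 of 24 (median 1.62), with Scd1, the stearoyl desaturase, at 860, 723 and 577 CPM in GHMT, against 16.3, 19 and 8.59 CPM in CM (5.6 ± 0.36, adjusted p = 5.4e-08).

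The Akt pathway had members on both sides of the adult level. Of 29 insulin and Akt pathway genes 12 were higher and 9 lower (median 0.09, and -0.46 with DESeq2 size factors), and Igf2, described above, was among the higher. Akt2 was lower by -3.39 ± 0.83 (adjusted p = 0.0027, on 6 GHMT reads). Akt1 had 1.31, 13.5 and 13.7 CPM in GHMT, against 23.8, 18.1 and 104 CPM in CM, and its call (-2.23 ± 0.80, adjusted p = 0.027) was lost after the GC correction and without GHMT 1.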

How the data were processed

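Counts per gene of 12 libraries, made by the authors with HTSeq from reads aligned with Bowtie2 2.0.6 to mm10 per the submitters' processing notes, were used as deposited. No source used here names the annotation version or the strand setting, so overlapping and antisense genes are uncertain, and HTSeq leaves out reads that match several places. A deposited table of normalized values (signal, gene counts divided by the authors' size factors) gave whole reads at 100% of values within 0.001 and served as a check: with edgeR it gave 3587 genes higher and 5231 lower. Gene names (42548 of 43629 IDs matched) and GC content, that of the longest transcript of a gene, came from the GENCODE mouse annotation. The start-proximal windows came from RefSeq on GRCm38.p6.

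Genes were kept with edgeR 4.0.16 (filterByExpr, minimum count 10), scaled by TMM, fitted over all 12 libraries with robust glmQLFit and tested with glmQLFTest (GHMT minus CM, Benjamini-Hochberg, 0.05). CPM are counts scaled to a common TMM-adjusted library size. Each library had 612458 to 7174467 non-mitochondrial gene reads in GHMT and CM, and floors of 3 counts cover counting error only. The SE of a log2 fold change comes from the quasi-likelihood test and includes the spread between libraries. In simulated counts for 15059 genes the test found 92 of 100 genes changed by 4-fold and 100 of 100 by 16-fold. The changed genes were drawn from those with a mean above 10 CPM. Every gene had the same dispersion, other genes had equal means in all groups, and no GC effect was simulated. These shares therefore do not carry over to genes of low count or to the GC difference between these libraries. DESeq2 1.42.0, limma 3.58.1, other scalings and filters, thinning to 612458 reads, a GC offset, a replicate block and leaving out libraries were tried as alternatives. Gene lists, pairs and members were chosen with earlier results of these data known. Genes named are the forced factors, Myh6, the most abundant and the 3 most changed called members of each list, the 10 largest changes in each direction and the pair genes; the other list members named were chosen after their values were seen. The values of some genes of the lists are not reported here, though the list counts and sums include them.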

Additional observations from a re-analysis of the deposited data

How the results depend on the processing

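The count of higher genes was 3588 and that of lower genes 5233. They moved by over 1.5 times in 3 alternatives: 2329 higher with limma on log2 of the deposited values plus 1, 1889 higher and 3091 lower with only the 6 libraries in the fit, and 874 higher and 948 lower after thinning, where 9443 genes were tested. Leaving out 1 library gave 3104 to 3644 higher and 4500 to 5212 lower. Another scaling changed the split: DESeq2 size factors gave 2844 higher and 6481 lower. The replicate numbers did not pair the libraries (correlations of same-numbered deviations -0.01, -0.04 and 0.06), and a fit with the replicate block gave 3115 higher and 4649 lower. Higher under the main fit, the GC correction, DESeq2 and without CM 3 or GHMT 1 in turn were 2369 genes, and lower 3528. Of 246 single genes followed over 21 alternatives, 173 kept their call in each alternative that gave a value. In at least 1 alternative 54 no longer passed, 17 came to pass and 9 changed sign, counting only genes that passed before or after, and the cause was not tested. The sign changed with the GC correction, and with it without CM 3, for Mef2c (-0.30, -0.42), Gja1 (-0.53, -0.55), Slc16a1 (-0.98, -1.0), Dnm1l (-0.11, -0.20) and Cul3 (-0.51, -0.59), and for Myl7 with both (0.60). With DESeq2 size factors, DESeq2 and limma it changed for Atp1b1 (-0.52, -0.52, -0.52) and Slc16a1 (-0.51, -0.51, -0.52). Over the fits without 1 library mt-Atp6 ran from -1.16 (without GHMT 1) to 3.48 and Nefl from -1.11 (without GHMT 2) to 4.0, and without both GHMT 1 and CM 3 mt-Atp6 was at -1.27.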

Other observations

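Single immune and stress genes stood on both sides of the adult level. Of 24 interferon response genes 23 were tested, 6 were higher in GHMT (26.1%, near the 23.8% of all genes) and 5 lower (21.7%, against 34.7% of all genes; median 0.54, and -0.03 with DESeq2 size factors). Ifit1, an RNA-binding effector, had 832, 666 and 590 CPM in GHMT, against 18.4, 18.9 and 8.59 CPM in CM and 4.18 CPM in E (5.48 ± 0.38, edgeR adjusted p = 8.7e-08). Ifih1, the MDA5 sensor of double-stranded RNA, had 131, 102 and 126 CPM in GHMT, against 14.2, 19.5 and 10.8 CPM in CM (2.99 ± 0.35, adjusted p = 7.6e-06). Mx1 had no read in GHMT and 1.37 to 2.38 CPM in CM. Of 24 cytokine and chemokine genes 18 were tested, 9 were higher and 5 lower, and the chemokine Cxcl12 had 672, 521 and 368 CPM in GHMT, against 125, 118 and 117 CPM in CM (2.11 ± 0.29, adjusted p = 3.1e-05). Of 20 immediate early genes 19 were tested, 4 were higher (21.1%) and 8 lower (42.1%), and 5 higher and 3 lower after the GC correction. Fosl2 was higher by 3.1 ± 0.28 (adjusted p = 6.4e-07) and Nr4a1 lower by -4.61 ± 0.76 (adjusted p = 0.00015).

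Among the genes that differed most, Scg2, which encodes a neuroendocrine granule protein, had 174, 128 and 147 CPM in GHMT, against 0, 0.101 and 0 CPM in CM and 1.01 CPM in E. Ereg, the ligand epiregulin, had 93.1, 141 and 143 CPM in GHMT, against 0.149, 0 and 0.172 CPM in CM. Gpr83, a G protein-coupled receptor, had 34.1, 64.1 and 45.4 CPM in GHMT and no read in CM or E, at least 506-fold higher than 3 reads over CM. Car14, a membrane carbonic anhydrase, and C1qtnf9, a secreted paralogue of adiponectin, had no read in GHMT and 96.7 to 165 and 73.7 to 103 CPM in CM, at least 189-fold and 132-fold lower. The mast cell protease Mcpt4 had 65.5, 103 and 162 CPM in GHMT, against 0.743, 0.704 and 0.859 CPM in CM (6.98 ± 0.45, adjusted p = 4.5e-08), while the mast cell markers Kit and Cpa3 had no read in GHMT. Canx, the chaperone calnexin, had 8763, 6215 and 4621 CPM in GHMT, against 397, 516 and 225 CPM in CM and 981 ± 329 CPM in E (4.11 ± 0.39, adjusted p = 1.3e-06). Xist, the long RNA of the inactive X, had 1446, 1693 and 1273 CPM in GHMT, against 1.41, 2.92 and 0.859 CPM in CM, and the Y-linked Ddx3y had 718, 684 and 424 CPM in GHMT, against 79.7, 105 and 41 CPM in CM. Both were present in E as well, so the GHMT and E libraries held RNA of both sexes, and the part of sex in the comparison was not tested.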
